A study of Mus musculus with 46 samples.

Results

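MC-38 is a mouse colon carcinoma line whose cells carry mutated proteins, and peptides from 3 of them, encoded by Adpgk, Reps1 and Dpagt1, are widely used as neoantigens of this tumor. These 3 genes were chosen by name, with earlier results of these data known. They are 3 of the 48795 genes in the deposited data, and all 3 passed the filter on low values in every comparison. Bulk RNA of 46 samples was sequenced to compare MC-38 tumors under PD-1 blockade with their controls. The question asked of these genes was whether their RNA was kept in treated tumors, as measured in the whole tissue and relative to markers of the carcinoma cells.

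Mice in both studies were female and 8 to 10 weeks old, and carried MC-38 tumors under the skin of the right flank. In the antibody study, WT mice of the C57BL/6NTac strain were sorted into groups on day 7 after implant and received 5 mg/kg of the PD-1 antibody muDX400 (PD-1 Ab) or an isotype control antibody. Each arm held 5 tumors after 1 dose (labelled day 4) and 5 after 2 doses (labelled day 8), and 3 baseline tumors and 3 untreated cultures of the line served as references. In the second study, 10 tumors labelled PD-1cKO came from Rosa26-creERT2 Pdcd1 fl/fl mice, in which tamoxifen removes exons 2 and 3 of Pdcd1 in every cell type that expresses the Cre. The floxed allele was made in C57BL/6NTac embryonic stem cells, and the background of the Cre line is not given in the sources used here. The 10 controls were littermates labelled WT, and both groups received tamoxifen at 40 mg/kg on 5 consecutive days and were labelled day 28. The methods of the study give an earlier day for these tumors. The breeding scheme gives littermates with the floxed alleles and no Cre. The study treats each tumor as 1 animal. Nothing says that the 3 cultures were grown separately, so p-values against culture measure the spread between these samples, which may be technical.

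A neoantigen reaches T cells only if its gene is transcribed and translated in the tumor cell, the protein is cut by the proteasome, and the peptide is carried into the endoplasmic reticulum by TAP and bound there by a class I molecule, H2-D1 or H2-K1 with B2m. T cells that kill the cells displaying it favour the outgrowth of cells that have lost the peptide, one route being loss of the RNA of the source gene. Adpgk encodes the ADP-dependent glucokinase of the endoplasmic reticulum, which phosphorylates glucose with ADP. Reps1 encodes an endocytic adaptor with EPS15 homology domains. Dpagt1 encodes the enzyme that starts the dolichol-linked oligosaccharide used for N-glycosylation. All 3 are housekeeping functions, so host cells in the tumor also express these genes, and the FPKM of a gene (its fragment count scaled to transcript length and library size) does not separate the mutated from the reference allele.

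In GRCm38, Adpgk lies on the plus strand of chromosome 9 from 59291558 to 59324052, with 10 merged exons of 9609 bases. Its exons overlap Bbs4 on the opposite strand. The kit was stranded, but the strand setting of the counting is not given in the sources used here, so reads of this pair may not be separated. Reps1 lies on the plus strand of chromosome 10 from 18055861 to 18125155, with 21 merged exons of 5564 bases, and 1.56% of the 50-base stretches of its transcripts also occur in other genes. Dpagt1 lies on the plus strand of chromosome 9 from 44326019 to 44333900, with 10 merged exons of 3425 bases, and 0.427% of its stretches are shared, against 0% for Adpgk.

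The libraries differed in ways that touch the values below. In isotype control replicate 1 after 1 dose, 54.6% of the summed FPKM was mitochondrial, against at most 7.65% in any other library. Short noncoding RNAs held 30.2% to 66.5% of the FPKM in the tumors of day 28 and at most 0.0817% in the antibody study, so levels were tested only within a study. The gene-level FPKM of Pdcd1 was 5.05 to 19.9 in tumors labelled PD-1cKO and 1.71 to 7.02 in WT tumors. Since it counts all exons, it does not check the label. The leading number of the sample identifiers, whose meaning the labels do not give, also split groups. In the tumors labelled PD-1cKO, 7 began with 10012, a number no WT tumor had, 1 with 10014 and 2 with 10033, while 9 WT tumors began with 10014 and 1 with 10033. The cultures (1389), the baseline tumors (1377) and both arms after 2 doses (1472) each had a number of their own, so number and group cannot be told apart in any comparison with culture. After 1 dose, isotype control replicates 1 to 3 began with 1509, and replicates 4 and 5 and all treated tumors with 1510.

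All 3 source genes were expressed in all 46 samples. In the 3 cultures the FPKM was 32.0, 30.9 and 29.5 for Reps1, 19.7, 19.2 and 19.1 for Adpgk, and 15.5, 16.7 and 15.2 for Dpagt1. Per length, Reps1 RNA was thus the most abundant of the 3 in the cells without host tissue. The lowest values over all tumors were 7.76 FPKM for Reps1 and 3.73 for Dpagt1, both in tumors labelled PD-1cKO, and 5.34 for Adpgk, in the isotype control tumor rich in mitochondrial RNA. Host cells express these genes too, so these levels do not show whether the carcinoma cells kept their RNA.

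In order of mean level, Reps1 was at 30.8 ± 1.21 FPKM (SD, n = 3) in culture, 30.4 ± 1.84 (n = 3) at baseline, 30.2 ± 3.22 (n = 5) in isotype control tumors after 2 doses, 29.7 ± 1.33 (n = 5) with PD-1 Ab and 28.7 ± 8.51 (n = 5) with isotype control after 1 dose. It was at 24.0 ± 2.58 (n = 5) with PD-1 Ab after 2 doses, 19.6 ± 1.88 (n = 10) in WT tumors and 13.4 ± 4.44 (n = 10) in tumors labelled PD-1cKO. The first 5 means lay within 1 SD of their neighbours, and both steps below PD-1 Ab after 2 doses were larger than the SD of either neighbour. Adpgk was flatter. It was at 22.1 ± 1.40 FPKM (n = 3) at baseline and between 15.3 ± 1.04 (n = 10) in WT tumors and 19.3 ± 1.70 (n = 5) in isotype control tumors after 2 doses elsewhere, and only the step from baseline to the next group was larger than the SD of both. Dpagt1 fell into the 2 studies. Its means were 14.2 ± 5.55 (n = 5) to 19.2 ± 1.67 (n = 5) in the 6 groups of the antibody study, against 7.65 ± 1.35 (n = 10) in WT tumors and 6.27 ± 1.39 (n = 10) in tumors labelled PD-1cKO.

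When each library was rescaled to the same sum over protein-coding nuclear genes, which removes the short noncoding RNAs, the rescaled level of Dpagt1 was 16.2 ± 0.72 (n = 5) in isotype control tumors after 2 doses and 8.20 ± 1.62 (n = 10) in WT tumors. The corresponding levels were 25.6 ± 3.78 and 21.04 ± 2.74 for Reps1 and 16.4 ± 2.32 and 16.4 ± 1.53 for Adpgk. Study, day and library makeup cannot be told apart in these differences, and they were not tested.

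**Figure D1:**
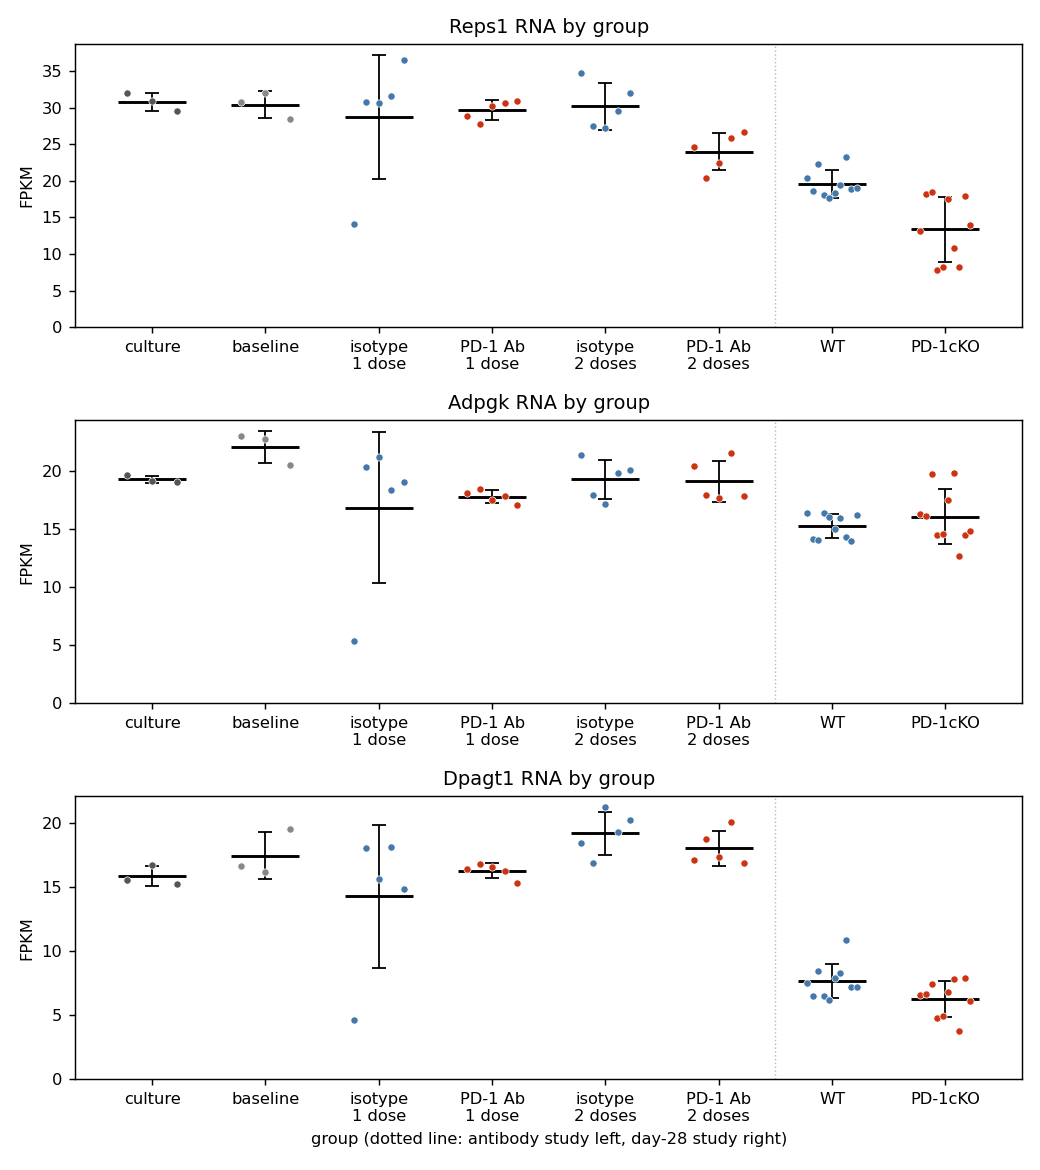
FPKM of Reps1, Adpgk and Dpagt1 on the vertical axes for each of the 46 samples (points), by group on the horizontal axis, with the mean (bar) and SD (whiskers). Reps1 was lowest in tumors labelled PD-1cKO (7.76 to 18.4 FPKM), Adpgk stayed between 12.7 and 23.1 in every library but 1, and Dpagt1 was lower in both day-28 groups.

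In baseline tumors and in isotype control tumors after 2 doses, no source gene passed the threshold against culture, while genes of the class I machinery that displays their peptides were higher in both. Genes were fitted with limma on log2(FPKM + 0.1) and called at an adjusted p under 0.01 over all genes tested. Between baseline tumors and culture 39.1% of all genes were called, and none of the 3 source genes was. The log2 differences were −0.02 for Reps1 (SE 0.064, limma adjusted p 0.816), 0.14 for Dpagt1 (SE 0.086, limma adjusted p 0.217) and 0.19 for Adpgk (SE 0.064, limma adjusted p 0.0361). Adpgk was at 23.1, 22.8 and 20.5 FPKM at baseline, above all 3 cultures, and its difference passed the threshold without baseline replicate 3 (limma adjusted p 0.00313). Of the class I genes, H2-D1 (3.10), H2-K1 (3.14) and B2m (2.61) were called as higher at baseline (limma adjusted p at most 1.29e-07). Calr and Pdia3 were not called.

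Between isotype control tumors after 2 doses and culture, 37% of all genes were called and again none of the 3 was. Adpgk differed by −0.0041 on the log2 scale (95% interval −0.21 to 0.20) and Reps1 by −0.03 (−0.25 to 0.19). Dpagt1 was at 18.4, 16.8, 21.2, 19.3 and 20.2 FPKM in the isotype control tumors, all above the 3 cultures, and differed by 0.27 (SE 0.093, limma adjusted p 0.0333). The median of all genes was −0.11 in this comparison. Of the 13 genes listed for class I presentation, 10 were called as higher in these tumors and none as lower, beside 20.2% of all genes called as higher, with a median log2 difference of 2.66. H2-D1 rose from a mean of 145 to 1329 FPKM (log2 difference 3.16, SE 0.18, limma adjusted p 6.32e-07), H2-K1 from 186 to 1700 (3.17, SE 0.17, limma adjusted p 4.85e-07) and B2m from 431 to 2790 (2.69, SE 0.12, limma adjusted p 1.55e-07). The peptide transporter Tap1 (3.74) and the immunoproteasome subunit Psmb9 (4.39) rose with them. Host cells express these genes too. Markers of leukocytes and myeloid cells summed to 410 to 516 FPKM in these tumors and 6.98 to 7.77 in culture, and their part in the class I difference was not tested.

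To read the source genes relative to the carcinoma cells, a score was built from markers that the cultures express. The epithelial markers could not serve. Krt8, Krt18, Epcam, Cdh1 and the other 9 of this list summed to 0.721 to 0.843 FPKM in culture, with Krt7, Cldn4 and Cdx2 at 0, so MC-38 lacked the epithelial markers expected of a carcinoma. Keratin RNA was nonetheless higher in some tumors. Krt8 was at 7.75 ± 7.10 FPKM (SD, n = 5, at most 16.8) after 2 doses of PD-1 Ab. It reached 19.8 in the tumors labelled PD-1cKO, where its mean was 2.71, against 0.353 or less in culture. Of 6 other genes listed as carcinoma markers, 4 had a mean of at least 5 FPKM in culture and formed the score: Hmga2, a chromatin protein (47.9), Igf2bp2 (17.9) and Igf2bp3 (8.03), RNA-binding proteins, and Cdkn2a, a cell cycle inhibitor (7.00). Hmga2 and Igf2bp3 are oncofetal genes, low in most adult tissues, whereas Igf2bp2 is also expressed in many adult tissues and Cdkn2a can be expressed by host cells, whose part in the score was not tested. The carcinoma marker score is the mean of their log2(FPKM + 0.1).

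The score was 3.90 ± 0.044 (SD, n = 3) in culture, 3.71 ± 0.094 (n = 3) at baseline, 3.09 ± 0.64 (n = 5) with isotype control and 3.39 ± 0.30 (n = 5) with PD-1 Ab after 1 dose, and 3.29 ± 0.21 (n = 5) and 3.42 ± 0.14 (n = 5) after 2 doses. After 2 doses the treated tumors differed from isotype control by 0.13 (2-sided exact permutation test, p = 0.254, adjusted over the 5 comparisons 0.318), and after 1 dose by 0.30 (exact p = 0.444, adjusted 0.444). Tumors labelled PD-1cKO scored 1.72 ± 1.04 (n = 10), from −0.44 to 3.08, against 2.63 ± 0.27 (n = 10), from 2.27 to 3.11, in WT tumors. The difference was −0.91 (2-sided permutation test with 100000 resamples, p = 0.0067, adjusted 0.0335), and 7 of the 10 tumors were below every WT tumor. Its adjusted permutation p was above 0.05 with median-of-ratios scaling (0.0536), with 1 FPKM added (0.0579), and in scores chosen after seeing the data, without Cdkn2a (0.104) or of Hmga2 alone (0.159). It was also above 0.05 when any 1 of WT replicates 3 and 8 or PD-1cKO replicates 1, 3, 4, 5, 7, 8 and 10 was left out (at most 0.0692).

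**Figure D2:**
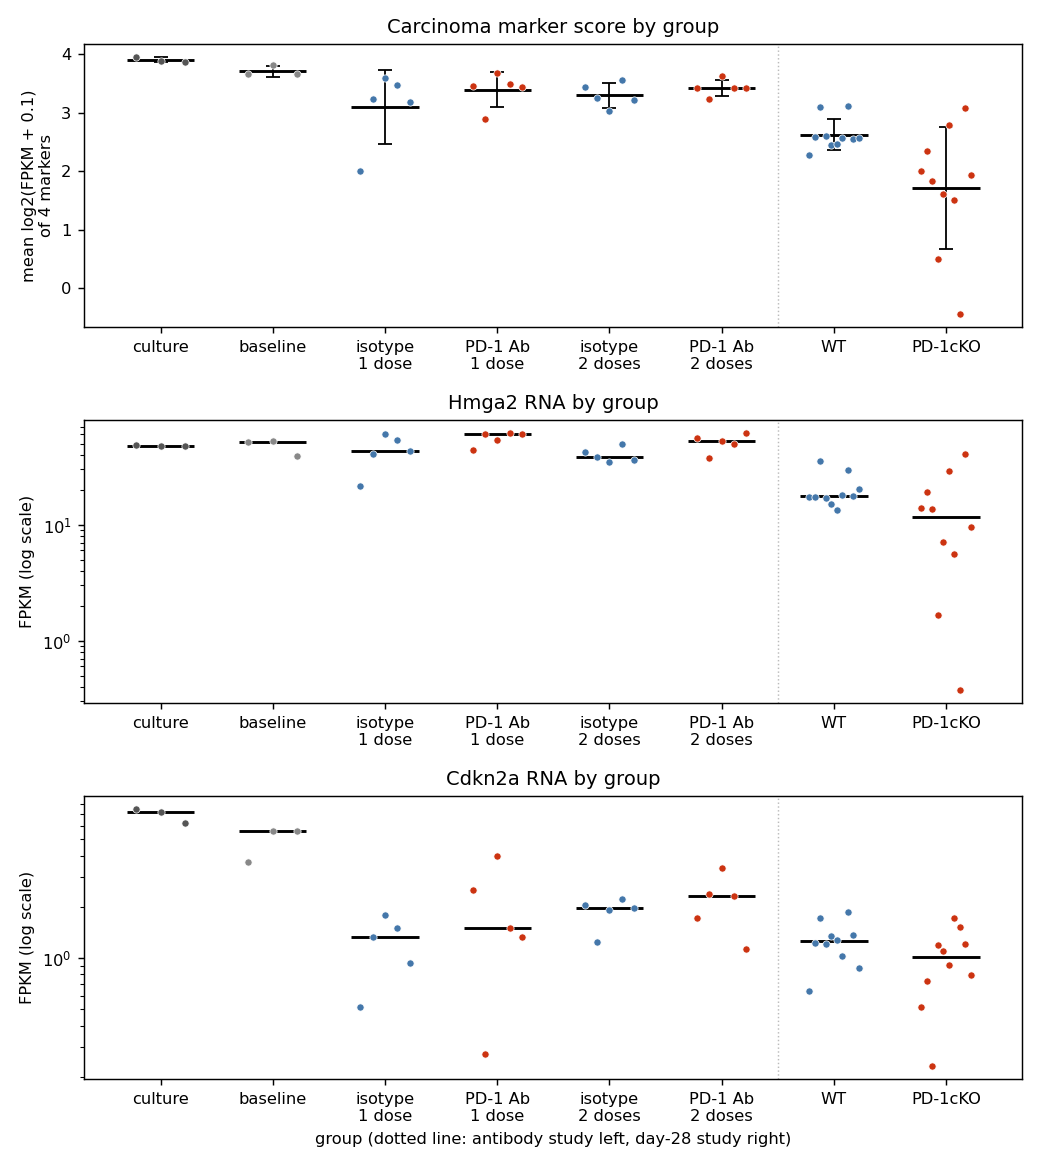
Carcinoma marker score (top, mean log2(FPKM + 0.1) of 4 markers, with mean and SD) and FPKM of Hmga2 and Cdkn2a (log axes, bars are medians) for each sample, by group. The score spread from −0.44 to 3.08 in tumors labelled PD-1cKO, Hmga2 was at 0.374 FPKM in 1 of them, and Cdkn2a was lower in every group of treated or isotype control tumors than in culture.

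The 4 markers did not move alike between culture and tumor. Cdkn2a fell from a mean of 7.00 to 1.88 FPKM in isotype control tumors after 2 doses (log2 difference −1.86, SE 0.19, limma adjusted p 4.19e-05), while Hmga2 differed by −0.27 (SE 0.12, limma adjusted p 0.0760) and Igf2bp2 by 0.23 (SE 0.14, limma adjusted p 0.176). Igf2bp3 was at a mean of 8.03 FPKM in culture and 5.65 in these tumors. Relative to the score, all 3 source genes were higher in these tumors than in culture, where 41.8% of all genes were called, 38.3% as higher. The log2 differences were 0.60 for Adpgk (SE 0.12, limma adjusted p 0.00176), 0.58 for Reps1 (SE 0.13, limma adjusted p 0.00393) and 0.88 for Dpagt1 (SE 0.17, limma adjusted p 0.00117), beside a median of 0.50 over all genes. With a score without Cdkn2a, chosen after seeing the data, they were 0.19, 0.16 and 0.46 and none passed (limma adjusted p 0.307, 0.442 and 0.086). Reps1 also lost its call without any 1 of the cultures or isotype control replicates 1 and 5 (limma adjusted p at most 0.0234), and Adpgk without any 1 of the cultures (at most 0.0137). At baseline only Adpgk was called relative to the score, where 33.5% of all genes were called, 25.9% as higher (log2 difference 0.39, SE 0.086, limma adjusted p 0.00478). That call did not hold without Cdkn2a in the score (limma adjusted p 0.0118), or without any 1 of the cultures or baseline replicate 1 (at most 0.0292).

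After 1 dose of PD-1 Ab no source gene passed the threshold against isotype control, nor did any other of the 14556 genes tested. The percent of genes called was 0, and 895 of 14556 had an unadjusted limma p under 0.05. Reps1 was at 28.9, 27.7, 30.2, 30.7 and 30.9 FPKM in treated tumors and at 14.1, 30.8, 30.6, 31.6 and 36.5 in isotype control tumors. Adpgk was at 18.2, 18.5, 17.5, 17.8 and 17.1 FPKM in treated tumors and at 5.34, 20.4, 21.2, 18.4 and 19.0 in isotype control tumors. Dpagt1 was at 16.4, 16.7, 16.6, 16.3 and 15.3 FPKM in treated tumors and at 4.65, 18.0, 15.6, 18.1 and 14.8 in isotype control tumors.

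In each gene the isotype control library rich in mitochondrial RNA was the lowest of the 10, and the treated tumors lay within the range of the controls. As deposited, the log2 differences were 0.11 for Reps1 (95% interval −0.43 to 0.65), 0.23 for Adpgk (−0.52 to 0.97) and 0.33 for Dpagt1 (−0.40 to 1.07), with a median of 0.26 over all genes. Without that library they were −0.12, −0.15 and −0.03. Relative to the carcinoma markers they were −0.18 for Reps1 (−0.58 to 0.22), −0.07 for Adpgk (−0.51 to 0.36) and 0.04 for Dpagt1 (−0.40 to 0.47), with 0.0206% of all genes called.

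After 2 doses Adpgk and Dpagt1 remained near the isotype control level, and the mean of Reps1 was lower without passing the threshold. Reps1 was at 24.7, 20.3, 22.5, 25.8 and 26.7 FPKM in PD-1 Ab-treated tumors and at 34.8, 27.5, 27.2, 29.6 and 32.0 in isotype control tumors. The groups did not overlap, and the share of all genes that separate in this way was not computed. Of all genes, 20.4% had a lower log2 difference than Reps1, and 5977 of 15062 had an unadjusted limma p under 0.05. The log2 difference was −0.33 (95% interval −0.56 to −0.10, limma adjusted p 0.0400) beside a median of −0.04 over all genes, and 8.25% of all genes were called, 1.56% as lower. Relative to the carcinoma markers it was −0.46 (−0.76 to −0.16, limma adjusted p 0.0392), and 4.1% of all genes were called. Leaving out 1 library moved the difference as deposited between −0.37 and −0.27 (limma adjusted p 0.0247 to 0.101).

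Adpgk was at 20.5, 18.0, 17.7, 21.6 and 17.9 FPKM in treated tumors and at 21.4, 18.0, 17.2, 19.8 and 20.2 in isotype control tumors. The ranges overlapped almost fully, and the log2 difference was −0.01 (95% interval −0.23 to 0.20, limma adjusted p 0.928). Dpagt1 was at 17.1, 18.7, 17.3, 20.0 and 16.9 FPKM in treated tumors, within the range of the isotype control tumors, and differed by −0.09 (−0.29 to 0.11, limma adjusted p 0.502). Relative to the carcinoma markers the differences were −0.15 for Adpgk (−0.44 to 0.15) and −0.22 for Dpagt1 (−0.57 to 0.13).

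Markers of other cell types moved in this comparison. All 8 T cell markers were called as higher, as were 6.69% of all genes, with a median log2 difference of 2.72, and their sum was 39.9 to 168 FPKM in treated and 9.10 to 19.6 in isotype control tumors. Markers of leukocytes and myeloid cells rose in 5 of 7 genes. Of 4 genes each, 1 adipose marker was called as higher (median log2 difference of the list 2.83), 1 of skeletal muscle (2.30) and 1 of endothelium (1.43). The adipose markers summed to 20.7 to 661 FPKM in treated and 7.13 to 77.1 in isotype control tumors, those of skeletal muscle to 1.53 to 58.9 and 0.379 to 0.577, and those of endothelium to 20.5 to 70.9 and 14.4 to 19.6. Of 3 neutrophil markers tested 1 was called as lower, as were 1.56% of all genes, and none of 6 fibroblast markers was called. The 13 epithelial markers summed to 3.18 to 56.8 FPKM in treated tumors (median 45.6) and 2.50 to 29.6 in isotype control tumors (median 6.60). The 6 proliferation genes were all lower in the treated mean, with a median of −0.37, and none was called. Their part in the difference of Reps1 was not tested. Among the class I genes, Nlrc5, the transactivator of the class I genes, rose by 1.28 (SE 0.17, limma adjusted p 0.00101) and Tap1 by 0.83 (SE 0.16, limma adjusted p 0.00455), and the other 11 did not pass. H2-D1 differed by 0.37 (SE 0.15, limma adjusted p 0.101) and H2-K1 by 0.42 (SE 0.15, limma adjusted p 0.0656).

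Among the day-28 tumors, Reps1 was lower with the label PD-1cKO than in WT, Dpagt1 was lower without passing the threshold, and Adpgk was not. Reps1 was at 13.1, 18.1, 18.4, 7.76, 8.16, 17.5, 10.9, 8.17, 17.9 and 13.9 FPKM in PD-1cKO replicates 1 to 10, with a median of 13.5. In WT tumors the lowest value was 17.6, the median 18.9 and the highest 23.3. Of the 10 tumors labelled PD-1cKO, 7 were below every WT tumor and the other 3 lay among the lower WT values. The log2 difference was −0.62 (95% interval −0.96 to −0.28, SE 0.16, limma adjusted p 0.00654). The median of all genes was −0.20, and 21.3% of genes were called, 12.6% as lower.

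With median-of-ratios scaling, which centres that median, the difference of Reps1 was −0.46 (limma adjusted p 0.00632). The call was lost, with the same direction, when any 1 of WT replicates 1, 3, 4, 6, 7, 8, 9 and 10 or PD-1cKO replicates 4, 5, 7 and 8 was left out (limma adjusted p at most 0.0132), and with scaling to the protein-coding sum (0.0163). The identifier runs are nearly the groups. With the run as a covariate the difference was −0.83 (limma adjusted p 0.0443). Within run 10033, Reps1 was at 17.9 and 13.9 FPKM in PD-1cKO replicates 9 and 10 and at 19.0 in WT replicate 10. Within run 10014 it was at 8.17 in PD-1cKO replicate 8, below the 9 WT tumors.

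Adpgk was at 16.4, 16.1, 19.8, 14.5, 14.6, 17.5, 19.9, 12.7, 14.5 and 14.8 FPKM in PD-1cKO replicates 1 to 10, with a median of 15.5. The WT tumors spanned 14.0 to 16.4 with a median of 15.5. The WT range lay inside that of the tumors labelled PD-1cKO, 3 of which were above and 1 below it. The log2 difference was 0.06 (95% interval −0.12 to 0.25, limma adjusted p 0.574), 0.23 with median-of-ratios scaling (limma adjusted p 0.0628) and −0.20 with the run as a covariate (0.319). Bbs4, which overlaps its exons on the other strand, fell by 0.91 on the log2 scale (SE 0.17, limma adjusted p 0.00108), from a mean of 3.21 to 1.73 FPKM.

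Dpagt1 was at 6.57, 6.65, 7.43, 4.75, 4.96, 6.79, 7.81, 3.73, 7.87 and 6.14 FPKM in PD-1cKO replicates 1 to 10, with a median of 6.61. The WT tumors spanned 6.20 to 10.8 with a median of 7.33. The groups overlapped in 6 of the 10 tumors labelled PD-1cKO, and 4 were below every WT tumor. The log2 difference was −0.30 (95% interval −0.59 to −0.01, limma adjusted p 0.0796), and −0.14 with median-of-ratios scaling (limma adjusted p 0.315).

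Relative to the carcinoma markers, which were lower in tumors labelled PD-1cKO, no source gene was lower, under any of the 11 other settings tried. The difference of Reps1 became 0.29 (95% interval −0.21 to 0.80, limma adjusted p 0.318), that of Dpagt1 0.61 (0.06 to 1.16, limma adjusted p 0.0675) and that of Adpgk 0.97 (0.33 to 1.62, limma adjusted p 0.0213). The median of all genes was 0.71 on this scale, with 8.33% of genes called. The difference of Adpgk on this scale passed the threshold without PD-1cKO replicate 6 or 9 (limma adjusted p 0.00997 and 0.00395). In bulk tissue, fewer carcinoma cells and less marker RNA per carcinoma cell cannot be told apart, and host transcripts of the source genes are not removed by this step.

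**Figure D3:**
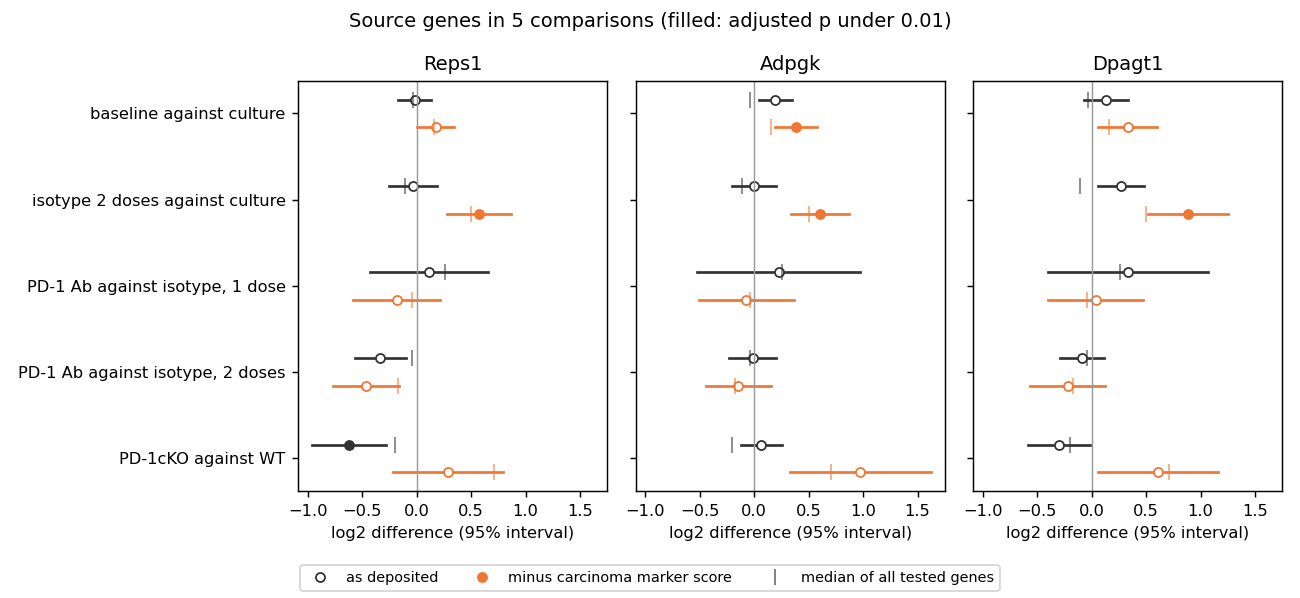
Log2 difference with its 95% limma interval (horizontal axis) for Reps1, Adpgk and Dpagt1 in 5 comparisons (vertical axis), as deposited (dark) and after subtracting the carcinoma marker score (orange). Filled points had an adjusted p under 0.01 and ticks mark the median of all tested genes. For PD-1cKO against WT, Reps1 moved from −0.62 to 0.29 and Adpgk from 0.06 to 0.97.

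The tumors labelled PD-1cKO differed widely in carcinoma marker RNA, so each gene was also fitted against the score within that group, an analysis added after seeing the data. Leaving out 1 tumor at a time, the score markers Hmga2, Igf2bp2 and Igf2bp3 had slopes of 1.77 to 1.89, 1.31 to 1.41 and 0.97 to 1.07. Cdkn2a, also part of the score, had negative slopes of −0.37 to −0.11 in these 10 fits and was called in none. Reps1 rose with the score by 0.40 on the log2 scale per unit (95% interval 0.18 to 0.62, limma adjusted p 0.00867). In the background, 21.4% of all genes were called, 17.4% with a positive slope, and the median slope was 0.15. The slope of Dpagt1 was 0.28 (0.09 to 0.46, limma adjusted p 0.0244) and that of Adpgk 0.08 (−0.09 to 0.26, limma adjusted p 0.437). With median-of-ratios scaling they were 0.29 for Reps1 (limma adjusted p 0.0505), 0.17 for Dpagt1 and −0.05 for Adpgk.

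PD-1cKO replicate 8 had the lowest score, −0.44. Hmga2 was at 0.374 FPKM there, against 13.3 or more in every WT tumor, while Reps1 was at 8.17, Adpgk at 12.7 and Dpagt1 at 3.73. PD-1cKO replicate 9, at the other end with Hmga2 at 41.0, had 17.9, 14.5 and 7.87. Leaving out 1 tumor kept the slope of Reps1 between 0.37 and 0.53, and it was called in 2 of the 10 fits. Without replicates 4 and 8, the 2 tumors farthest from the median score, it was 0.52 (SE 0.21, limma adjusted p 0.0775). Within the WT tumors the score spanned only 2.27 to 3.11 and 0% of genes were called. The slopes there were 0.37 for Reps1, 0.58 for Dpagt1 and −0.21 for Adpgk, and without WT replicates 3 and 8 those of Reps1 and Dpagt1 were −0.27 and −0.26. The score and the genes share the scaling of each library.

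**Figure D4:**
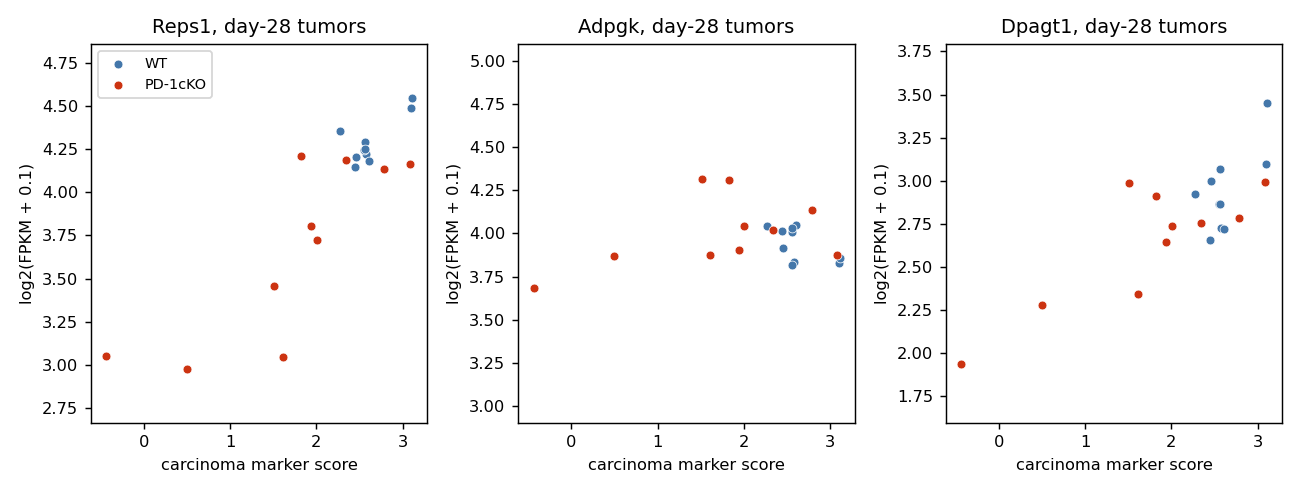
Log2(FPKM + 0.1) of Reps1, Adpgk and Dpagt1 (vertical axes, equal spans) against the carcinoma marker score (horizontal axis) for the 10 WT and 10 PD-1cKO tumors. The slopes within PD-1cKO tumors were 0.40, 0.08 and 0.28.

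Other markers moved in the same tumors. In PD-1cKO against WT, 5 of the 6 proliferation genes fell, beside 12.6% of all genes called as lower, with a median of −1.32 over the 6. Mki67 fell by 1.54 on the log2 scale (SE 0.34, limma adjusted p 0.00252), and Mcm5 differed by −0.94 without passing (SE 0.32, limma adjusted p 0.0217). Their sum was 71.9 to 438 FPKM in tumors labelled PD-1cKO and 414 to 604 in WT tumors. All 8 T cell markers, 4 of 7 leukocyte and myeloid, 4 of 5 neutrophil and 4 of 6 fibroblast markers rose, beside 8.78% of all genes. None of the 4 markers each of adipose, skeletal muscle and endothelium was called, beside 21.3% of all genes, with medians of 1.77, −1.14 and 0.51. Fibroblast markers summed to 2228 to 12424 FPKM and 1067 to 2272 in the respective groups. The part of these cells in the values of the source genes was not tested.

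The change of the source genes was not shown to differ between antibody and deletion. In a contrast over the 4 groups, the effect of 2 doses minus that of PD-1cKO was 0.29 on the log2 scale for Reps1 (95% interval −0.22 to 0.79, limma adjusted p 0.551), 0.21 for Dpagt1 (−0.21 to 0.63, limma adjusted p 0.602) and −0.08 for Adpgk (−0.36 to 0.20, limma adjusted p 0.790). Of all genes 0.0975% were called.

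Other genes described as sources of MC-38 antigens were Aatf, Cpne1, Irgq, Med12 and Rpl18. None of the 5 was called after 1 or 2 doses of PD-1 Ab or with the deletion, beside 0%, 8.25% and 21.3% of all genes. In PD-1cKO against WT, Cpne1, a calcium-dependent phospholipid-binding protein, was at 31.9 ± 10.8 against 43.1 ± 3.30 FPKM (SD, n = 10 each), a log2 difference of −0.51 (SE 0.17, limma adjusted p 0.0194). Aatf, a nucleolar protein of ribosome assembly, was at 21.9 ± 11.0 against 32.2 ± 5.40 (−0.78, SE 0.30, limma adjusted p 0.0385). Irgq (0.17), Med12, a Mediator subunit (−0.01), and the ribosomal protein Rpl18 (−0.09) had limma adjusted p of 0.174 or more. After 2 doses of PD-1 Ab the 5 differences ran from −0.47 for Rpl18 to 0.28 for Med12. Against culture, Cpne1 and Med12 fell by 0.54 and 0.54 in isotype control tumors (limma adjusted p 0.00891 and 0.00377), beside 37% of all genes called in either direction.

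Around Reps1, none of 16 endocytic adaptors and partners was called in PD-1cKO against WT, beside 21.3% of all genes. Of their log2 differences 6 were positive, and the median was −0.11 beside −0.20 over all genes. Eps15, the adaptor that names the shared domain, was at 33.3 against 48.9 FPKM (log2 difference −0.68, SE 0.22, limma adjusted p 0.0174). Reps2, the paralog, was near absent in culture (0.129 FPKM) and at 1.401 against 0.409 (1.17, SE 0.39, limma adjusted p 0.0201). After 2 doses none of the 15 tested was called, beside 8.25% of all genes.

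Of the 31 genes of dolichol-linked oligosaccharide assembly and transfer, 10 fell and 1 rose in PD-1cKO against WT, beside 12.6% and 8.78% of all genes, with a median of −0.35 beside −0.20 over all genes. Dpagt1 catalyses the first step, and Alg13 and Alg14, which form the enzyme of the second, fell by 0.70 (SE 0.19, limma adjusted p 0.00789) and 0.56 (SE 0.14, limma adjusted p 0.00429). Alg1, the first mannosyltransferase, rose by 0.35 (SE 0.10, limma adjusted p 0.00871). Those with the lowest adjusted p were Ostc, of the oligosaccharyltransferase (−1.13), Alg6, a glucosyltransferase (−1.26), and Magt1 (−0.79). After 2 doses Ostc alone was called (−0.49, SE 0.087, limma adjusted p 0.00332), beside 8.25% of all genes. Relative to the carcinoma markers none of the 31 was called in either comparison, beside 8.33% of all genes in PD-1cKO against WT and 4.1% after 2 doses.

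Around Adpgk, 1 of 15 tested genes of glucose phosphorylation and glycolysis was called after 2 doses, beside 8.25% of all genes, and 1 in PD-1cKO against WT, beside 21.3%. It was Hk3 both times, a hexokinase of myeloid cells. Hk3 was at 0.0243 FPKM in culture, and rose by 2.28 after 2 doses (SE 0.23, limma adjusted p 0.000806), from 9.76 to 46.2 FPKM. With the deletion it rose by 1.58 (SE 0.19, limma adjusted p 0.000414), from 19.8 to 60.4. Hk1 and Hk2, the hexokinases of most cells, were at 35.8 and 16.1 FPKM in culture. They differed by −0.29 and −0.36 in PD-1cKO against WT (limma adjusted p 0.102 and 0.176) and by −0.13 and −0.02 after 2 doses (0.279 and 0.927). Hkdc1 was at or under 0.122 FPKM in every group mean and was not tested.

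Among the 13 listed class I genes in PD-1cKO against WT, only H2-D1 was called as higher and only the peptide-trimming Erap1 as lower, beside 8.78% and 12.6% of all genes. H2-D1 rose by 0.53 (SE 0.14, limma adjusted p 0.00593) and Erap1 fell by 0.91 (SE 0.19, limma adjusted p 0.00208). H2-K1 differed by 0.40 (SE 0.13, limma adjusted p 0.0166) and B2m by −0.26 (SE 0.15, limma adjusted p 0.153).

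Pooled over all tumors, the 3 source genes correlated weakly with each other. Within the tumors labelled PD-1cKO, Reps1 and Dpagt1 both had positive slopes on the score, and their correlation within that group was not computed. Over the 43 tumors, with group means subtracted and median-of-ratios scaling, Pearson's r on the log2 scale was −0.19 between Adpgk and Reps1, 0.23 between Adpgk and Dpagt1 and 0.24 between Reps1 and Dpagt1. These values are descriptions over tumors that share libraries and groups. Of 9513 genes averaging 5 FPKM or more, those most like Reps1 were Ddx18, an RNA helicase (r 0.85), Washc5 of the WASH complex (0.84) and the miRNA-processing nuclease Drosha (0.84). The r of Reps1 was 0.66 with Hmga2 and 0.68 with Igf2bp3. Most like Adpgk were Urgcp (0.71), Plbd2 (0.71) and the kinase Csk (0.70), and its r with Hmga2 was −0.28. Most like Dpagt1 were Tmem39b (0.73), Pygo2 (0.69) and Gtf3c5 (0.69).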

How the data were processed

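RNA was extracted from frozen tumors and cultures, and libraries were made with a stranded total RNA kit with ribosomal depletion and read as 50-base pairs. The authors aligned reads to mouse B38 with Omicsoft Array Studio 10.0.1.118, allowing 2 mismatches, quantified Ensembl release 86 genes and deposited FPKM for 46 samples. FPKM carries no depth, and 3743 values lie between 0 and 1e-06, so whole reads were not recoverable and precision is the spread between samples. The authors tested counts with DESeq2, which FPKM does not allow. Replicates are libraries labelled as separate samples of a group, and no identical pair was found.

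Groups came from the sample labels. Coordinates and biotypes came from GENCODE M21 (99.3% of identifiers matched). Short noncoding RNAs were the small RNA, rRNA and miscellaneous RNA biotypes. The filter kept genes averaging 0.5 FPKM or more in a group compared, and limma 3.58.1 (R 4.3.3, eBayes with a trend) was run on log2(FPKM + 0.1), which understates changes of low genes. P-values were adjusted over all tested genes (Benjamini-Hochberg) and genes were called under 0.01. The score was subtracted from every gene before the same fit. Scores were compared by permutation tests (scipy 1.17.1) against 0.05. On simulated data, log2 changes of 2 were called in 57% of 100 genes for 1 dose, 87% for 2 doses and 95% for PD-1cKO, and changes of 0.5 in 0%, 6% and 10%.

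Genes named were the 3 source genes, other MC-38 antigen source genes, carcinoma markers, nearest pathway neighbours (1 is not reported here), class I genes, up to 3 called genes of each list, and the 3 genes most like each member. The members and lists were chosen with earlier results of these data known. Bbs4, Pdcd1, Krt8 and Mcm5 were added after their values were seen. The alternatives were other scalings, pseudocounts and filters, no trend, all groups in 1 fit, a replicate block, the identifier run, other marker sets and each library left out.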

Additional observations from a re-analysis of the deposited data

Results flagged for a closer look

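Of 42 sets of values (the FPKM of each source gene, the carcinoma marker score and each gene minus the score, in the 6 groups of 5 or 10 tumors), 7 held a tumor far from the rest by Dixon's test, where chance gives about 1 in 20. In 4 of them it was isotype control replicate 1 after 1 dose, the library with 54.6% mitochondrial FPKM. Its values were 5.34 FPKM for Adpgk (other 4 tumors 18.4 to 21.2), 14.1 for Reps1 (30.6 to 36.5) and 4.65 for Dpagt1 (14.8 to 18.1), and its score was 1.995 (3.17 to 3.59). Relative to the score none of the 3 genes stood apart there. In WT replicate 8, Dpagt1 was at 10.8 FPKM against 6.20 to 8.45 in the other 9, in a tumor with the highest WT score, 3.11. Reps1 minus the score was 2.08 in WT replicate 1 (others 1.39 to 1.75), and Dpagt1 minus the score was 1.18 in PD-1 Ab-treated replicate 2 after 1 dose (others 0.38 to 0.60), where Cdkn2a was at 0.272 FPKM.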

How the results depend on the processing

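Of 818 values of the source genes and the score under alternatives, 720 kept their direction and side of the threshold, 56 fell short of it, 6 passed it and 36 changed sign. The cause was not tested. After 1 dose, under median-of-ratios, upper-quartile and protein-coding scaling and with the run as a covariate, Adpgk was at −0.030, −0.038, −0.016 and −0.071 and Reps1 at −0.14, −0.15, −0.13 and −0.20, with Dpagt1 at −0.012 under the last. Relative to the score, Dpagt1 was at −0.082 with the run and −0.089 with Hmga2 alone, and Adpgk at 0.018 with Lin28b added to the score. After 2 doses Adpgk was at 0.038 with protein-coding scaling, and Reps1 relative to Hmga2 alone at −0.68, past the threshold (limma adjusted p 0.0098). The score difference in PD-1cKO against WT missed 0.05 with median-of-ratios scaling (−0.69), 1 FPKM added (−0.68), without Cdkn2a (−1.08) and with Hmga2 alone (−1.23). Reps1 in PD-1cKO against WT missed 0.01 without the filter (−0.62, limma adjusted p 0.0132), with protein-coding scaling (−0.49) and with the run (−0.83), where Adpgk was at −0.20. Relative to the score with Lin28b, Adpgk passed there (1.115, limma adjusted p 0.00783). Against culture with median-of-ratios scaling, Adpgk was at 0.031 and Reps1 at 0.0019 in isotype control tumors after 2 doses. Relative to scores without Cdkn2a, of Hmga2 alone and with Lin28b, Adpgk (0.19, 0.27, 0.42), Reps1 (0.16, 0.24, 0.39) and Dpagt1 (0.46, 0.55, 0.70) missed the threshold there. At baseline Adpgk missed it too (0.28, 0.21, 0.27, and 0.39 without a trend), and Reps1 was at −0.0060 with Hmga2 alone. With median-of-ratios scaling the difference between antibody and deletion was −0.0021 for Dpagt1.

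The replicate numbers in the labels are not stated to pair samples, and the deviations of same-numbered samples correlated between −0.21 and 0.16. With the number as a block, 30 of 33 values kept their call. Reps1 in PD-1cKO against WT (−0.62, limma adjusted p 0.0131) and, relative to the score against culture, Adpgk (0.63, 0.0128) and Reps1 (0.61, 0.0150) in isotype control tumors did not. The block gave 342 called genes after 2 doses and 212 relative to the score, 1883 in PD-1cKO against WT, 2733 in isotype control tumors against culture and 4 in the difference between antibody and deletion.

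Other counts of called genes moved by more than 1.5 times. After 1 dose there were 2 with protein-coding scaling and 10 with all groups in 1 fit, and relative to the score 0 without a trend, with the block or with the run. After 2 doses there were 578 without the filter, and relative to the score 388 without it, 192 without Cdkn2a and 1041 with Hmga2 alone. In PD-1cKO against WT there were 1893 without the filter and 0 with the run. Relative to the score there were 3453 with the run, 0 without Cdkn2a, 0 with Hmga2 alone and 3986 with Lin28b. Baseline relative to Hmga2 alone gave 3233. The difference between antibody and deletion gave 43 with 1 FPKM added, 33 without the filter and 10 with median-of-ratios scaling.

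Leaving out 1 library at a time, the score difference in PD-1cKO against WT ran from −1.06 to −0.67. After 1 dose the ranges were −0.15 to 0.35 for Adpgk, −0.12 to 0.22 for Reps1 and −0.029 to 0.46 for Dpagt1, and relative to the score −0.21 to 0.0082 for Adpgk and −0.10 to 0.12 for Dpagt1. After 2 doses Adpgk ran from −0.058 to 0.024. In PD-1cKO against WT, Reps1 ran from −0.68 to −0.54, and Adpgk relative to the score from 0.77 to 1.14. Against culture, isotype control tumors gave −0.042 to 0.037 for Adpgk and −0.085 to 0.0036 for Reps1, and relative to the score 0.57 to 0.66 and 0.53 to 0.65. Baseline tumors gave 0.16 to 0.25 for Adpgk and −0.058 to 0.028 for Reps1, and relative to the score 0.33 to 0.42 for Adpgk and 0.22 to 0.44 for Dpagt1, which passed without baseline replicate 2 (limma adjusted p 0.00808). Called genes ran from 0 to 14 after 1 dose (relative 0 to 80), 421 to 2571 after 2 doses (153 to 1606), 1965 to 4866 in PD-1cKO against WT (2 to 4711), 3563 to 7095 and 3813 to 7088 for isotype control and baseline tumors against culture (relative, baseline, 3336 to 5529) and 2 to 61 for the difference.

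A score from epithelial markers was not possible, since none reached 5 FPKM in culture. A floor of 1 FPKM gave the same 4 markers. The files hold FPKM and not the read number of each library, so precision was taken from the spread between samples.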
